A study of Mus musculus with 4 samples.

Results

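The genes described here carry the symbols of the nuclear-encoded machinery of oxidative phosphorylation: Nduf, Uqcr, Cox4 to Cox8, Sdha to Sdhd, and Atp5. That symbol pattern found 92 of the 23466 gene symbols in the table, each represented by its transcript record with the highest mean over the 4 libraries. Of the 92 genes, 74 encode subunits of complexes I to V (36, 4, 8, 11 and 15 genes), 8 encode tissue isoforms of complex IV subunits, and 10 encode assembly or associated factors. Cyc1 of complex III and Usmg5 of complex V fall outside the pattern, and the subunits encoded in mitochondrial DNA were not analysed here.

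RNA came from frozen hippocampus of mice aged 30 days after birth. In mutants 38 and 39 a conditional allele of Atp6ap2 was combined with Camk2a-Cre, and wild-types 11 and 73 were their controls. All 4 samples were of the C57BL/6N strain. The titles of the mutants read ko, while their condition field reads conditional het. The Camk2a promoter drives Cre in excitatory neurons of the forebrain, so that glia, vessels and inhibitory neurons of the same tissue keep the allele. Atp6ap2 encodes an accessory subunit of the proton pump that acidifies lysosomes and synaptic vesicles. The labels do not say that the samples came from separate animals, so p-values measure only the spread between these samples.

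Oxidative phosphorylation couples electron transport to the making of ATP in the inner mitochondrial membrane. Complex I takes electrons from NADH and complex II from succinate, ubiquinone carries them to complex III and cytochrome c to complex IV, and complex V uses the resulting proton gradient to make ATP. Neurons depend heavily on this route, and the subunits come from both nuclear and mitochondrial genomes.

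Values are scaled read equivalents: aligned bases of a transcript, scaled per library by the authors and divided here by the read length of 42 bases. They are not normalised for length. Depth before scaling was 18328405 and 17543464 read equivalents in mutants 38 and 39, against 18339838 and 10023033 in wild-types 11 and 73. Atp6ap2 had 2551 and 2522 read equivalents in the mutants and 2312 and 2637 in the wild-types (log2 fold change 0.04 ± 0.10 SE, n = 2 per group; limma adjusted p = 0.991), so these libraries showed no drop of the targeted transcript as a whole. Markers of hippocampal pyramidal and granule cells were present, 12 of 12. They summed to 16164 and 18124 in the mutants and 18309 and 19982 in the wild-types. In 4 of the 12 the mutants lay below the wild-types without overlap, where 16.5% of all genes did so. The 4 were Fibcd1 (1392 and 1600 in the mutants, 2243 and 2299 in the wild-types), C1ql2, Cpne7 and Zbtb20. In 1 of the 12, Man1a, the mutants lay above without overlap, where 16.8% of all genes did so. Markers of the choroid plexus, the tissue that secretes cerebrospinal fluid, summed to 133720 in mutant 38 and 10204 in mutant 39, against 80719 in wild-type 11 and 10407 in wild-type 73. All 17 of these markers were higher in mutant 38 and wild-type 11 than in mutant 39 and wild-type 73. Myelin markers were higher in both mutants for 8 of 8 genes, with sums of 104250 and 92396 in the mutants and 84649 and 61260 in the wild-types. Red blood cell markers were higher in both mutants for 5 of 6 genes, with sums of 6765 and 7976 in the mutants and 6399 and 4702 in the wild-types. Among the 5, Hba-a1 and Hba-a2 had nearly the same value in each library (2117 for both in mutant 38) and may hold the same reads. The 7 markers of thalamus summed to 5411 in mutant 38 and 2007 in mutant 39. The sums were 2026 in wild-type 11 and 2040 in wild-type 73. Mutant 38 stood apart in this sum but not in each gene, and Calb2 was highest in wild-type 73 (555.4). Of the 7, Slc17a6 (953.7 and 783.1 in the mutants, 380.4 and 408.3 in the wild-types) and Rora were higher in both mutants. The part of these tissues and cells in the values below was not tested. In bulk tissue, fewer cells of a type and less RNA per cell cannot be told apart.

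No gene of the set passed the test between mutant and wild-type hippocampus. Of the 92 genes, 91 could be tested (Cox8c had no signal), and 0 of 91 had an adjusted p below 0.05 in limma with Benjamini-Hochberg adjustment over all 18127 genes tested, where 0.00552% of genes (1 gene) passed. With no adjustment, 0 of 91 had a p below 0.05, against 3.94% of all genes (2.18% higher and 1.75% lower in the mutants). The smallest unadjusted limma p in the set was 0.0563, for Ndufa1, and the smallest adjusted p was 0.989. In the authors' deposited table the smallest p among the 92 was 0.0622, for Ndufs4, and 1.66% of all gene symbols had a p below 0.05 there.

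The log2 fold changes of mutant over wild-type had a median of 0.02 over the 91 genes and 0.01 over all genes. Of the 91, 57 were above 0 and 34 below, where 51.3% of all genes were above 0. Both mutants exceeded both wild-types in 16 of 91 genes, against 16.8% of all genes, and both fell short of both wild-types in 2 of 91, against 16.5% of all genes. The count in the upper direction is near that of all genes, and the count in the lower direction was 4 with libraries centred on their median and 7 with quantile normalisation. The median over the set depended on single libraries, at 0.11 without mutant 38, -0.05 without mutant 39, -0.02 without wild-type 11 and 0.09 without wild-type 73.

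The precision was high for most of these abundant transcripts. Of the 91 genes, 81 had a 95% interval of the fold change inside 2-fold in either direction, against 70.2% of all genes. Among the 79 genes with a mean of at least 100 read equivalents it was 78, where 96.4% of all genes at that level had such an interval. The median distance from the estimate to the end of the interval was 0.31 on the log2 scale. These intervals are for 1 gene at a time, and the adjusted test over all genes is stricter. With 2 libraries a group, changes larger than these intervals could therefore also fail to pass. Slc17a6, a marker of thalamus, had a log2 fold change of 1.13 without overlap of the groups and did not pass.

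**Figure D1:**
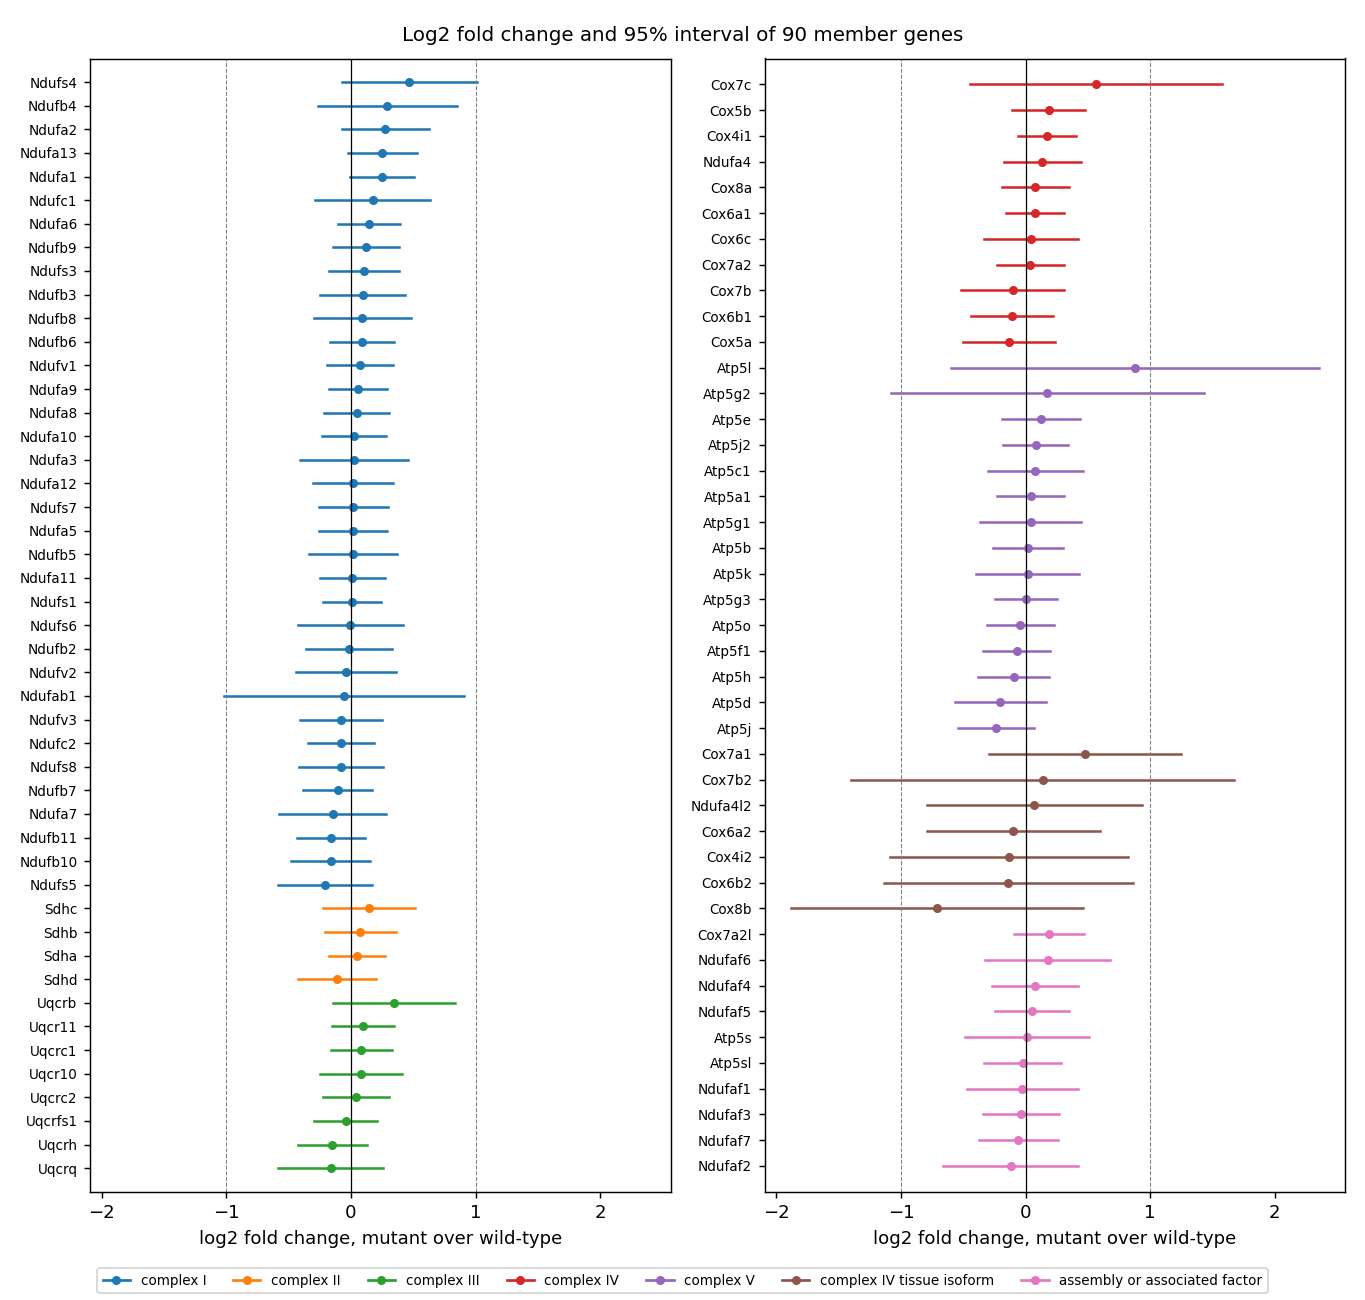
Log2 fold changes of mutant over wild-type (points, horizontal axis) with 95% intervals from limma (lines) for 90 of the 91 tested genes, grouped by complex and ordered by value, with dashed lines at 2-fold in either direction. Every interval shown crosses 0, and the widest ones belong to the genes with few reads, such as Atp5l, Cox7b2 and Cox8b.

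Complex I, the entry point for NADH, was represented by 7 core and 29 accessory subunits, and the log2 fold changes of the 36 genes had a median of 0.02. None passed, 6 (16.7%) had both mutants above both wild-types, against 16.8% of all genes, and 1 (2.78%) had both below, against 16.5% of all genes. The core subunits that carry the flavin and the iron-sulphur clusters were close to even. Ndufv1, the subunit that oxidises NADH, had 1866 and 2198 read equivalents in mutants 38 and 39 and 1966 and 1888 in wild-types 11 and 73 (log2 fold change 0.07 ± 0.11 SE). Ndufs1, the largest subunit of the peripheral arm, had 2350 and 2608 in the mutants and 2495 and 2428 in the wild-types. In both genes the groups overlapped. The 7 core subunits had a median of 0.01 and a range from -0.08 to 0.10, and the 29 accessory subunits ranged from -0.21 to 0.47.

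The accessory subunits of complex I held the genes with the smallest p-values of the set. Ndufa1, a small membrane-anchored subunit, had 724.9 and 697.3 read equivalents in the mutants and 612.9 and 583.8 in the wild-types (log2 fold change 0.25 ± 0.11 SE, 95% interval -0.01 to 0.51). Ndufa13, also known as Grim19, had 1347 and 1406 in the mutants and 1257 and 1062 in the wild-types (0.25 ± 0.12 SE). In both genes the mutants were above the wild-types without overlap. Ndufs4, needed for the last steps of complex I assembly and a cause of Leigh-like disease when lost in mice, had 685.9 and 900.6 in the mutants and 710.6 and 454.2 in the wild-types. Its log2 fold change of 0.47 ± 0.23 (SE, n = 2 per group) was the largest among complex I genes, and here the groups overlapped, since mutant 38 lay below wild-type 11. Without wild-type 73 the Ndufs4 value was 0.15, without mutant 39 it was 0.27, and without wild-type 11 it was 0.79 (limma adjusted p between 0.196 and 1.00 without any single library).

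On the lower side of complex I, Ndufb11 of the membrane arm had 467.3 and 493.1 read equivalents in the mutants and 530.7 and 543.2 in the wild-types (log2 fold change -0.16 ± 0.12 SE), and the mutants lay below the wild-types without overlap. Ndufs5 had 743.8 and 794.7 in the mutants and 760.0 and 1040 in the wild-types (-0.21 ± 0.16 SE). Ndufb10 had 1250 and 1269 in the mutants and 1250 and 1591 in the wild-types (-0.16 ± 0.13 SE). In Ndufs5 and Ndufb10 a single high value, that of wild-type 73, set the wild-type mean apart. Ndufa10, Ndufa11, Ndufa5 and Ndufs7, of both arms of the enzyme, had log2 fold changes between 0.01 and 0.02.

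Complex II, which feeds electrons from succinate and is also an enzyme of the tricarboxylic acid cycle, has all its subunits encoded in the nucleus, and the median over its 4 genes was 0.06. The flavoprotein gene Sdha had 4990 and 5113 read equivalents in the mutants and 4984 and 4782 in the wild-types (0.05 ± 0.09 SE, 95% interval -0.17 to 0.27). The iron-sulphur gene Sdhb had 1864 and 2119 in the mutants and 1747 and 2042 in the wild-types. The membrane anchors diverged in sign, with Sdhc at 1064 and 1018 in the mutants and 1100 and 807.5 in the wild-types (0.14 ± 0.16 SE), and Sdhd at 1147 and 1155 in the mutants and 1107 and 1401 in the wild-types (-0.11 ± 0.13 SE). In both anchors the outlying library was wild-type 73, low for Sdhc and high for Sdhd, and the groups overlapped.

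Complex III, which passes electrons from ubiquinol to cytochrome c, had a median of 0.06 over 8 genes. Uqcrfs1, the Rieske iron-sulphur protein, had 1159 and 1222 read equivalents in the mutants and 1157 and 1298 in the wild-types (log2 fold change -0.04 ± 0.11 SE). The core protein gene Uqcrc1 had 2777 and 3155 in the mutants and 2767 and 2818 in the wild-types (0.08 ± 0.10 SE). The groups overlapped in both genes. Uqcrb, which binds near the ubiquinone pocket, had 121.0 and 118.8 in the mutants and 85.7 and 103.7 in the wild-types (0.34 ± 0.21 SE), and Uqcr11 had 745.9 and 763.2 in the mutants and 695.8 and 713.4 in the wild-types (0.10 ± 0.10 SE). The mutants were above the wild-types in Uqcrb and Uqcr11 without overlap. The hinge protein gene Uqcrh had 1451 and 1408 in the mutants and 1447 and 1736 in the wild-types (-0.15 ± 0.12 SE), where wild-type 73 was again the high library. Uqcrq had 209.3 and 226.9 in the mutants and 215.2 and 276.7 in the wild-types (-0.16 ± 0.18 SE). Without wild-type 11 the median of complex III was -0.06.

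Complex IV, cytochrome c oxidase, reduces oxygen, and its nuclear subunits surround a core made in mitochondria. The 11 ubiquitous subunits, Ndufa4 among them, had the highest median of the complexes, 0.08, with none passing. Cox4i1, the regulatory subunit that binds nucleotides, had 4612 and 5068 read equivalents in the mutants and 4287 and 4286 in the wild-types (log2 fold change 0.17 ± 0.10 SE, 95% interval -0.06 to 0.41), and the groups did not overlap. Cox5b, a zinc-binding subunit, had 3166 and 3775 in the mutants and 3241 and 2853 in the wild-types (0.18 ± 0.12 SE). Ndufa4, first assigned to complex I by its symbol, had 2912 and 3494 in the mutants and 2673 and 3152 in the wild-types (0.14 ± 0.13 SE). In Cox5b and Ndufa4 the groups overlapped. Lower means were seen for Cox5a (959.1 and 1006 in the mutants, 920.4 and 1255 in the wild-types), for Cox6b1 (1399 and 1730 in the mutants, 1550 and 1816 in the wild-types) and for Cox7b (1384 and 1472 in the mutants, 1271 and 1852 in the wild-types). Wild-type 73 was the highest library in all 3 of these genes. Cox6c had 1705 and 2024 in the mutants and 2083 and 1555 in the wild-types, with a log2 fold change of 0.05 ± 0.16. The median of complex IV was -0.05 without mutant 39 and 0.17 without mutant 38.

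Complex V, the ATP synthase, was represented by 15 genes with a median of 0.02. The alpha subunit gene Atp5a1 had 12637 and 14220 read equivalents in the mutants and 13072 and 12966 in the wild-types (0.04 ± 0.11 SE, 95% interval -0.23 to 0.31). The catalytic beta subunit gene Atp5b had 15172 and 17219 in the mutants and 15673 and 16251 in the wild-types (0.02 ± 0.12 SE, 95% interval -0.26 to 0.30). In both genes mutant 38 was the lowest and mutant 39 the highest library, so the wild-types lay between the mutants. Atp5j, coupling factor 6 of the outer stalk, had 577.4 and 611.3 in the mutants and 641.3 and 763.0 in the wild-types (-0.24 ± 0.13 SE, 95% interval -0.54 to 0.07), the mutants lying below the wild-types without overlap. Atp5d, the delta subunit of the rotating stalk, had 1900 and 2151 in the mutants and 2000 and 2702 in the wild-types (-0.20 ± 0.16 SE). Atp5h of the outer stalk had 947.4 and 993.2 in the mutants and 951.3 and 1128 in the wild-types (-0.09 ± 0.12 SE). In Atp5d and Atp5h the groups overlapped and wild-type 73 was the highest library. Atp5e, the epsilon subunit, had 637.6 and 773.2 in the mutants and 620.8 and 665.6 in the wild-types, and Atp5j2, the membrane subunit f, had 775.5 and 862.5 in the mutants and 772.9 and 772.6 in the wild-types. Their log2 fold changes were 0.13 ± 0.13 and 0.08 ± 0.11 (SE), and the groups did not overlap in Atp5j2. Without wild-type 11 the median of complex V was -0.14.

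The 10 assembly or associated factors had a median of -0.01. Cox7a2l, grouped here as a factor of supercomplex assembly, had 580.1 and 653.0 read equivalents in the mutants and 540.1 and 538.0 in the wild-types (log2 fold change 0.19 ± 0.12 SE), without overlap. The complex I assembly factor gene Ndufaf6 had 114.1 and 95.8 in the mutants and 92.9 and 91.6 in the wild-types (0.18 ± 0.21 SE), also without overlap. Ndufaf2, which assists a late step of complex I assembly, had 143.0 and 150.0 in the mutants and 130.9 and 193.8 in the wild-types (-0.12 ± 0.23 SE). The other factors, Ndufaf1, Ndufaf3, Ndufaf4, Ndufaf5, Ndufaf7, Atp5s and Atp5sl, lay between -0.06 and 0.08, and their groups overlapped.

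The difference between libraries that the genes shared ran across the genotypes. Mutant 39 and wild-type 73 were both above mutant 38 and wild-type 11 in 47 of 91 genes (51.6%), against 20% of all genes. Among genes with a mean of at least 100 read equivalents it was 44 of 79 (55.7%), against 24.1% of all genes at that level. The reverse order was seen in 5 of 91 genes, against 20.6% of all genes, and 4 of these 5 were tissue isoforms of complex IV. The deviations from each gene's own mean had medians of -0.06 in mutant 38 and 0.09 in mutant 39, against -0.07 in wild-type 11 and 0.05 in wild-type 73, on the log2 scale, while over all genes each library's median was within 0.01 of 0. Complex V showed the order most often, in 10 of 15 genes, followed by complex III in 5 of 8 and complex IV in 6 of 11. It was 18 of 36 for complex I and 2 of 4 for complex II. Mutant 39 was the highest of the 4 libraries in 42 of 91 genes, against 22.4% of all genes, and wild-type 73 in 33, against 30% of all genes. The libraries in which the set was lower, mutant 38 and wild-type 11, are those with the higher choroid plexus sums given above, and the part of the choroid plexus in this order was not tested.

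Within each of these library pairs the medians of the genotypes over the 91 genes were close. Those of complex IV were less so in mutant 39 and wild-type 73. Mutant 39 against wild-type 73, the libraries low in choroid plexus markers, gave a median log2 difference of 0.06 over the 91 genes, and mutant 38 against wild-type 11 gave 0.01. For complex IV the values were 0.15 and 0.03, and for complex V -0.05 and 0.01. Each of these compares 1 library with 1 library and has no replicate check. Ndufa1 was 0.26 in the first pair and 0.24 in the second, while Ndufs4 was 0.99 in the first pair and -0.05 in the second. With choroid plexus markers as a term of the model, 78 genes of the whole table passed and 0 of 91 here.

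**Figure D2:**
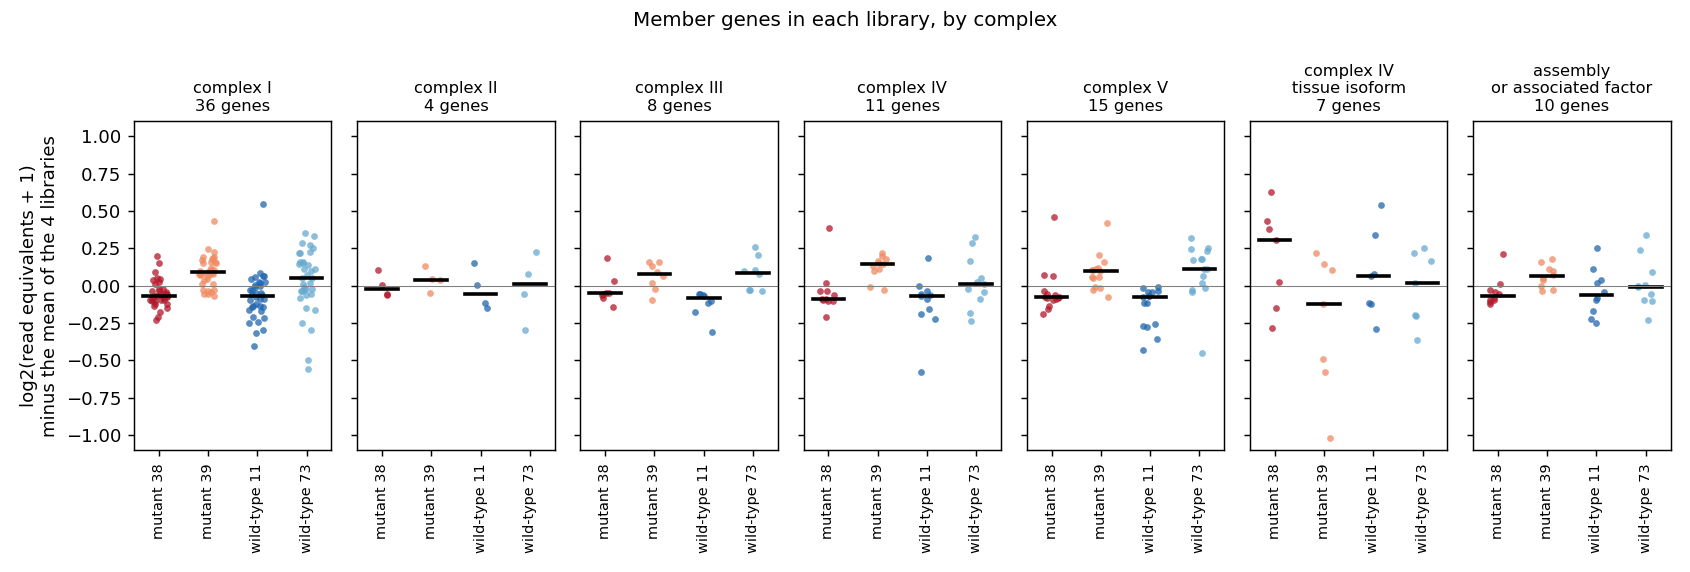
Deviation of log2(read equivalents + 1) from each gene's mean over the 4 libraries (vertical axis), by library and complex, with 1 point a gene and a bar at the median. In each of complexes I to V the medians of mutant 39 and wild-type 73 are above 0 and those of mutant 38 and wild-type 11 below 0. The tissue isoforms of complex IV scatter more widely.

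Levels were compared between genes per kilobase of coding sequence, with coding lengths from GENCODE M21, in which all 92 genes were found through the accession of their record. Reads in untranslated parts are in the numerator, so short coding sequences come out high. The medians were 1939 for complex I, 2395 for complex II, 2065 for complex III, 7053 for complex IV and 3156 for complex V, against 370.8 for the factors and 109.0 for the tissue isoforms. Cox8a led with 18297, followed by Ndufa4 with 12429, Atp5b with 10132 and Cox4i1 with 9001. Per kilobase of whole transcript Atp5b was the highest, with 8392, and Cox8a had 6886. The ranges inside a complex were wide, such as 93.1 (Ndufab1) to 4799 (Ndufa3) in complex I and 322.2 (Uqcrb) to 5658 (Uqcrh) in complex III.

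Several complex IV subunits exist as a ubiquitous form and a form of heart and skeletal muscle, lung, testis or low-oxygen states. In hippocampus every tissue isoform was far below its counterpart per coding kilobase in all 4 libraries. Cox4i2, the lung form that responds to oxygen, was at 0.269% and 0.336% of Cox4i1 in the mutants and 0.325% and 0.43% in the wild-types. Cox6a2, the heart and muscle form, was at 1.76% and 1.44% of Cox6a1 in the mutants and 1.87% and 1.74% in the wild-types. Cox7a1, another muscle form, was at 2.72% and 1.92% of Cox7a2 in the mutants and 1.88% and 1.47% in the wild-types. None of these isoforms passed the test between the genotypes. Ndufa4l2, a paralogue of Ndufa4 induced by low oxygen, was at 0.736% and 0.8% of Ndufa4 in the mutants and 0.723% and 0.887% in the wild-types.

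Some isoforms had an order of libraries that ran across the genotypes. Cox8b, the muscle form of Cox8a, had 29.3 and 11.1 read equivalents in mutants 38 and 39 and 34.7 and 26.5 in wild-types 11 and 73 (log2 fold change -0.71 ± 0.49 SE, 95% interval -1.88 to 0.46). Cox6b2, the testis form of Cox6b1, had 47.4 and 23.0 in the mutants and 44.1 and 30.2 in the wild-types (-0.14 ± 0.42 SE). Cox8b, Cox6b2, Cox6a2 and Cox7b2 were higher in mutant 38 and wild-type 11 than in mutant 39 and wild-type 73, the order of the choroid plexus markers, whose part was not tested. For Cox6a2 the order rested on 35.4 read equivalents in mutant 38 against 35.3 in wild-type 73. Cox7b2 had no more than 6 reads before scaling in any library. Cox4i2 and Ndufa4l2 had the opposite order. The first order was thus seen in 4 of the 7 tested isoforms (57.1%), against 20.6% of all genes. The opposite order was seen in 2 of the 7 (28.6%), against 20% of all genes. Cox7a1 had 37.1 and 30.5 in the mutants and 26.1 and 21.8 in the wild-types (0.48 ± 0.33 SE, 95% interval -0.29 to 1.25), without overlap. Muscle markers were low in every library: the 7 genes summed to 381.2 and 402.4 in the mutants and 353.5 and 448.3 in the wild-types, with Ckm, the muscle creatine kinase, between 0 and 1.7. Markers of smooth muscle and pericytes summed to 2843 and 2143 in the mutants and 2304 and 2054 in the wild-types. In 3 of the 8 the mutants lay above the wild-types without overlap, where 16.8% of all genes did so. In 1 of the 8, Higd1b, the mutants lay below without overlap, where 16.5% of all genes did so. The part of smooth muscle and pericytes in the Cox7a1 values was not tested.

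**Figure D3:**
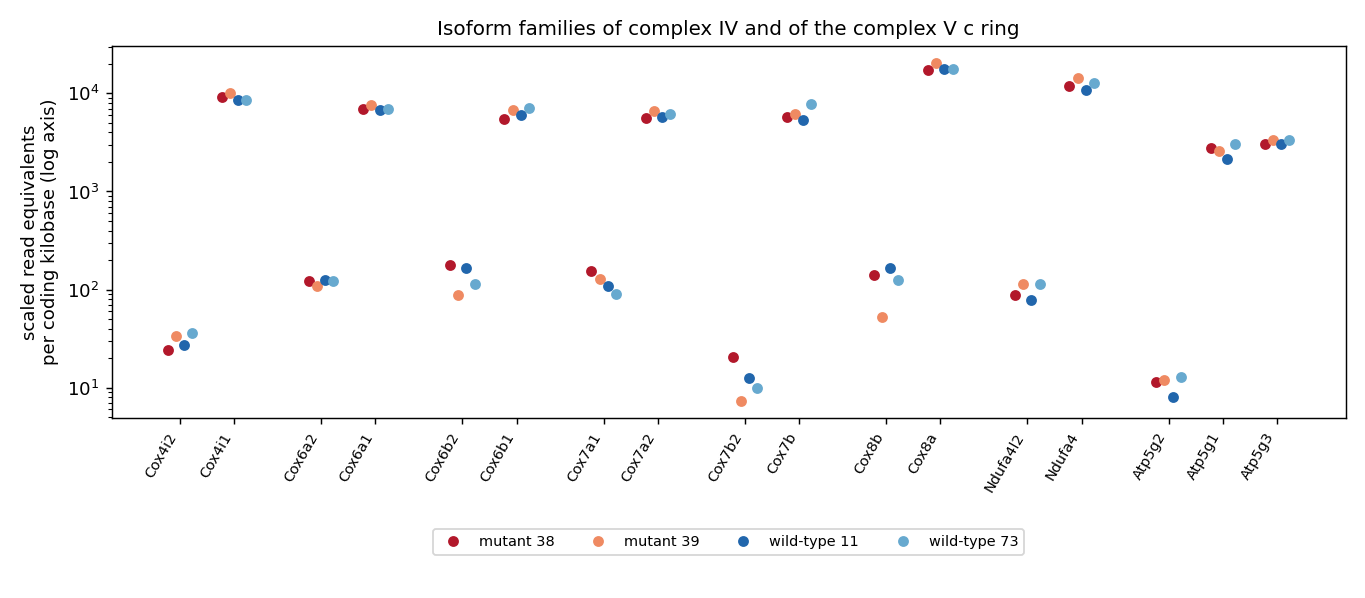
Scaled read equivalents per coding kilobase (log axis) of the tissue isoforms of complex IV beside their ubiquitous counterparts, and of the 3 c-ring genes of complex V, with 1 point for each library. Each tissue isoform lies far below its counterpart in all 4 libraries, and Atp5g2 lies far below Atp5g1 and Atp5g3.

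Some genes were near 0 in every library, among them subunits that every copy of their enzyme contains. Below 10 read equivalents in all 4 libraries were Atp5l, Atp5g2, Cox7b2 and Cox8c, and just outside that limit were Cox7c and Cox4i2. Atp5l, subunit g of the ATP synthase membrane part, had 2.97 and 2.88 read equivalents in the mutants and 1.15 and 1.12 in the wild-types, which is 3.52 and 3.19 reads before scaling in the mutants and 1.38 and 0.714 in the wild-types. Its log2 fold change of 0.88 ± 0.62 (SE, 95% interval -0.60 to 2.36) therefore rests on fewer than 4 reads in each library. Cox7c, a ubiquitous subunit of complex IV, had 17.4 and 14.9 in the mutants and 8.41 and 13.2 in the wild-types (0.57 ± 0.43 SE). Ndufab1, the mitochondrial acyl carrier protein that is built into complex I, had 35.6 and 47.4 in the mutants and 61.8 and 29.5 in the wild-types. Cox7b2, a testis form, had 5.06 and 1.81 in the mutants and 3.12 and 2.42 in the wild-types. Cox8c, also a testis form, was at 0 in every library, where a count of 0 allows up to 3 reads, or 2.53 and 2.71 read equivalents in the mutants and 2.51 and 4.68 in the wild-types, for counting error alone.

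What the low ubiquitous subunits had in common was coding sequence shared with other genes. Each transcript was cut into all windows of 42 bases, the length of a read, and each window was looked for in all other genes annotated in GENCODE M21. Of the 74 subunits of complexes I to V, 6 had every coding window in another gene as well: Atp5l, Atp5g2, Cox7c, Ndufab1, Ndufb4 and Atp5g1. The first 5 of these were the 5 subunits with the lowest level per coding kilobase, at 6.57, 11.1, 71.3, 93.1 and 309.3. Uqcrb, with 80.1% of its coding windows shared, was next in both orders, at 322.2, and the next level after it was 619.8. Atp5g1 was the exception, at 2633 with every coding window shared. Of its 4715 transcript bases 408 are coding, and of the 3479 of Ndufab1, at 93.1, 468 are coding. Ndufs5 shared 76.2% and Cox5b 67.1%, and they stood at 2624 and 8420. Among the 70 subunits at or above 100 read equivalents per coding kilobase, 12 shared at least 50% of their coding windows. Ndufb4, Uqcrb and Atp5g1 were among the 12. The median share was 100% over the 4 subunits below 100 read equivalents per coding kilobase and 2.43% over the other 70. The tissue isoforms were low without shared coding sequence, since 8 of 8 had no such window. Over whole transcripts, untranslated parts included, the shares differed more. They were 85.1% for Atp5l, 87.5% for Atp5g2, 53.7% for Cox7c, 37.5% for Ndufb4 and 12.5% for Ndufab1, against 12.9% for Atp5g1. Whether the authors' alignment dropped reads that match several places is not given in the sources used here, and the part of shared sequence in the low values was not tested.

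The windows below show how exact the sharing is. Each is a run of 42 coding bases that occurs letter for letter in the number of annotated pseudogenes given, so a read from it has no single place in the genome. The Atp5l window, coding bases 215 to 256 (gene on chromosome 9), is also in 10 pseudogenes, the Atp5g2 window, bases 325 to 366 (chromosome 15), in 3, and the Cox7c window, bases 145 to 186 (chromosome 13), in 3.
Atp5l: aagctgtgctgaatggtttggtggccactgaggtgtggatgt
Atp5g2: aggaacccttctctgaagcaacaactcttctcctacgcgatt
Cox7c: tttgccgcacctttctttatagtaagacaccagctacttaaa

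**Figure D4:**
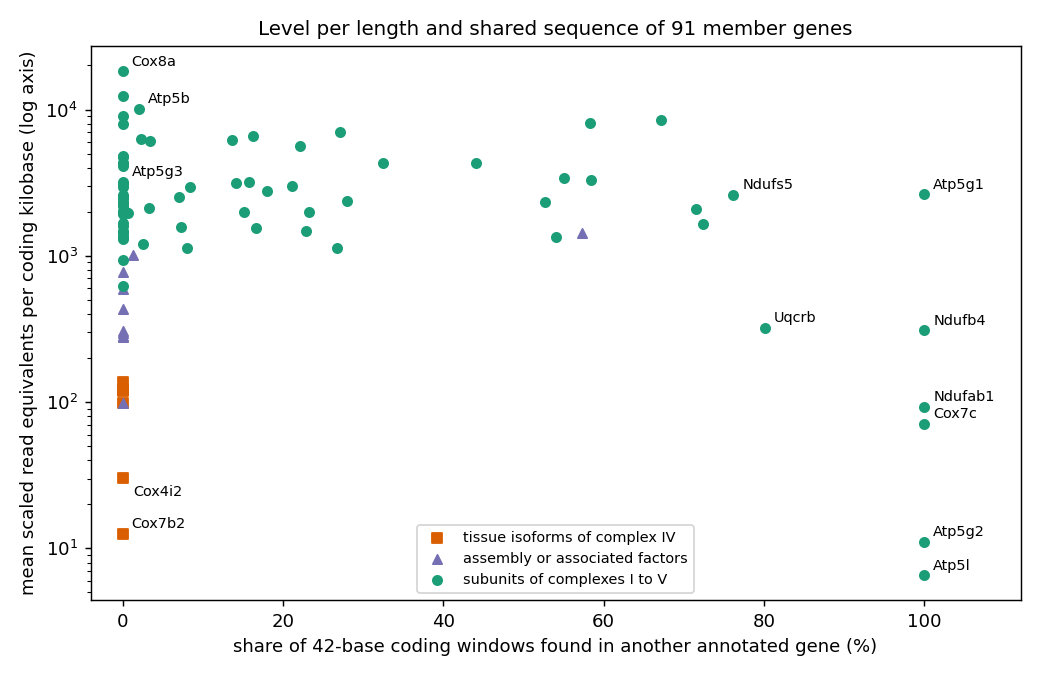
Mean scaled read equivalents per coding kilobase over the 4 libraries (log axis) against the percentage of 42-base coding windows found in another annotated gene, with 1 point for each of the 91 genes with signal. The subunits of complexes I to V with the lowest levels, Atp5l, Atp5g2, Cox7c, Ndufab1 and Ndufb4, all stand at 100%, where Atp5g1 also stands at 2633.

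The c ring of complex V, the rotor that protons turn, is encoded by 3 genes whose mature protein is the same. Atp5g3 had 1301 and 1409 read equivalents in the mutants and 1293 and 1414 in the wild-types (log2 fold change 0.00 ± 0.11 SE, 95% interval -0.25 to 0.25). Atp5g1 had 1119 and 1045 in the mutants and 879.0 and 1255 in the wild-types (0.04 ± 0.17 SE). Atp5g2 had 5.06 and 5.27 in the mutants and 3.54 and 5.58 in the wild-types. The groups overlapped in all 3. Per coding kilobase Atp5g1 was at 89.2% and 76.9% of Atp5g3 in the mutants and 70.5% and 92% in the wild-types. The Atp5g1 transcript is 4715 bases long in GENCODE M21, of which 408 are coding, so its level per transcript kilobase would be 227.9 against 1897 for Atp5g3.

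The last 90 coding bases before the stop codon show where the 3 c-ring transcripts differ while encoding the same ring. Capitals mark the 24 positions at which at least 1 of the 3 differs. Atp5g1 is on chromosome 11, Atp5g2 on 15 and Atp5g3 on 2.
Atp5g1: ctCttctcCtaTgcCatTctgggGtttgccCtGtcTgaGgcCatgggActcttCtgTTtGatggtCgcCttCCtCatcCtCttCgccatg
Atp5g2: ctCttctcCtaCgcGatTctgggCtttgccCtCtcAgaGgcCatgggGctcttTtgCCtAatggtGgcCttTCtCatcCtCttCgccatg
Atp5g3: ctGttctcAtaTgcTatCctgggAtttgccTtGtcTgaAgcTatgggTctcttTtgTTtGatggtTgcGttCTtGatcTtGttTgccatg

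In this stretch Atp5g1 and Atp5g2 were identical at 78 of 90 bases (86.7%), Atp5g1 and Atp5g3 at 73 (81.1%), and Atp5g2 and Atp5g3 at 67 (74.4%). The longest run shared by any 2 of them was 18 bases, shorter than a read. Within this stretch no 42-base read of one gene matches another gene of the trio exactly, and the windows of Atp5g2 found elsewhere were in 3 pseudogenes.

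Promoters of respiratory chain genes are known for sites of the nuclear respiratory factors, of ETS-family factors and of YY1. In RefSeq windows of GRCm38.p6, from 250 bases before to 50 after the start of a gene, 76 of the 92 genes had a window. The NRF1 palindrome, whose 10 letters are the capitals in the stretches below, was in 7 of 76 windows (9.21%), against 0.977% of 27025 windows and 1.69% of the 13009 windows of tested genes. CCGGAAG, an ETS core such as that of GABP, was in 16 of 76 (21.1%), against 14.6% of the windows of tested genes. AAGATGGCG, a YY1 site form, was in 7 of 76 (9.21%), against 2.52%, and in all 7 genes it began 22 to 35 bases after the start. TCAAGGTCA, the site form of estrogen-related receptors, was in 2 of 76 (2.63%), against 0.307%. Both strands were searched, these letters do not contain one another, and a match is a description of the window only. The stretches below, written on the strand of the gene, show the NRF1 letters in capitals in 5 of the 7 promoters, where they begin between 162 and 42 bases before the start.
Atp5g2 (chr15:102671055-102671114, minus strand): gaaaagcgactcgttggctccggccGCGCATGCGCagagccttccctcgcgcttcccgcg
Atp5k (chr5:108434415-108434474, minus strand): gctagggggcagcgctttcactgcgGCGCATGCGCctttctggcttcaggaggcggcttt
Cox6a1 (chr5:115349086-115349145, minus strand): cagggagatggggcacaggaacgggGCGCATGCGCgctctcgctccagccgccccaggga
Ndufa11 (chr17:56717677-56717736, plus strand): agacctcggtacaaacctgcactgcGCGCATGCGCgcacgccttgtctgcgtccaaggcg
Ndufaf4 (chr4:24897945-24898004, plus strand): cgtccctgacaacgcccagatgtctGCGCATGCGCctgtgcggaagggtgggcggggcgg

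None of the genes with these promoters passed between the genotypes. Atp5k, subunit e of complex V, had 1312 and 1501 read equivalents in the mutants and 1159 and 1658 in the wild-types (log2 fold change 0.02 ± 0.18 SE). Ndufa11 of the complex I membrane arm had 620.2 and 655.6 in the mutants and 645.8 and 619.1 in the wild-types (0.01 ± 0.11 SE). Cox6a1 had 2316 and 2554 in the mutants and 2274 and 2335 in the wild-types (0.08 ± 0.10 SE). The groups overlapped in all 3 genes.

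Genes around the respiratory chain gave 0 passing genes in every list in limma, and medians near that of all genes. The median was 0.01 for the 33 assembly factors of complexes II to V, 0.00 for the 7 complex I assembly factors outside the Nduf symbols, 0.05 for the 23 genes of the tricarboxylic acid cycle and pyruvate dehydrogenase, 0.00 for the 20 glycolysis genes and 0.02 for the 32 tested electron carriers, mitochondrial carriers and coupling genes. The 76 tested mitochondrial ribosomal protein genes had a median of -0.06, with 49 below 0. Both mutants lay below both wild-types in 13 of these 76 (17.1%), against 16.5% of all genes, and above them in 6 (7.89%), against 16.8% of all genes. The 24 tested regulators of mitochondrial gene expression had a median of 0.02, and both mutants lay below both wild-types in 7 of them (29.2%) and above in 3 (12.5%). Those 7 were Gabpa, a subunit of the ETS factor GABP, the mitochondrial RNA polymerase gene Polrmt, the deacetylase gene Sirt1, the PGC-1 relatives Ppargc1b and Pprc1, Peo1, which encodes the helicase of mitochondrial DNA, and Mtf1. Mtf1 encodes a transcription factor that responds to metals, so its place among these regulators is doubtful. The counts given for this list include it. The 3 were Ppargc1a, Esrrg and Tfb1m.

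The share of genes with the order of libraries described above ranged widely over the lists, which was not tested. Mutant 39 and wild-type 73 were above mutant 38 and wild-type 11 in 12 of the 20 glycolysis genes (60%), 36 of the 76 mitochondrial ribosomal protein genes (47.4%) and 10 of the 23 genes of the tricarboxylic acid cycle and pyruvate dehydrogenase (43.5%), against 20% of all genes. It was 10 of 32 for the carriers and coupling genes (31.2%) and 10 of 33 for the assembly factors of complexes II to V (30.3%). Among the complex I assembly factors outside the Nduf symbols it was 1 of 7 (14.3%), and among the regulators 2 of 24 (8.33%), where 6 of 24 (25%) had the reverse order, against 20.6% of all genes. Over all 215 genes of these lists it was 81 (37.7%).

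Of the 215 tested genes of these lists, 6 (2.79%) had an unadjusted limma p below 0.05, a smaller share than the 3.94% of all genes, so their values are given as a description only. Usmg5, the small ATP synthase subunit that the symbol pattern leaves out, had 493.8 and 516.9 read equivalents in the mutants and 358.4 and 390.5 in the wild-types (log2 fold change 0.43 ± 0.12 SE). Ppargc1a, the coactivator PGC-1 alpha that drives mitochondrial gene expression, had 962.1 and 960.2 in the mutants and 803.4 and 821.3 in the wild-types (log2 fold change 0.24). Slc25a5, a carrier that exchanges ATP for ADP, had 600.6 and 679.4 in the mutants and 532.5 and 407.2 in the wild-types (log2 fold change 0.46). In these 3 genes, and in Ucp2 (0.61) and Pdp1 (0.45), the mutants lay above the wild-types without overlap, and in the ribosomal protein gene Mrpl51 (-0.43) they lay below. The adjusted limma p was 0.989 for each of the 6. Cyc1, the cytochrome c1 of complex III, had 1120 and 1208 in the mutants and 1164 and 1238 in the wild-types, and Cycs, cytochrome c, had 371.8 and 380.1 in the mutants and 322.7 and 368.9 in the wild-types.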

How the data were processed

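RNA of 4 hippocampus samples was sequenced, 2 mutant and 2 wild-type. The labels' protocols describe removal of ribosomal RNA, random priming with the strand kept by dUTP, and reads from a single end. GSNAP, DESeq2 and mm9 are named in the submitters' processing notes. No source used here names the counter, the annotation version or whether strand was used, so overlapping genes may share reads.

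The deposited table holds 31315 transcript records with a signal value for each library. In the table as deposited by the authors, each signal value is aligned bases times a scaling factor: all were whole multiples of a step within 0.05, with common low values at 42, 84 and 126 steps. The authors' p-value column is named after DESeq and does not say whether it is adjusted. Each value was divided by 42, and log2(read equivalents + 1) was tested in limma (version 3.58.1, R version 4.3.3; variance trend, two-sided, Benjamini-Hochberg at 0.05) for genes with at least 1 read equivalent in 2 libraries. The pseudocount understates changes of low genes. The edgeR test planned for counts does not apply to such values and was left out. The fit was also run on simulated data with independent errors. These lacked the order of libraries described above, so that run cannot show how the test behaves on these samples. Lengths and shared windows came from GENCODE M21 and promoters from RefSeq, both on GRCm38, while the table is on mm9. Tables and plots were made in Python (3.11.15) with matplotlib (3.10.9). Counting limits cover counting error only.

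The members and lists were chosen with earlier results of these data known. Genes were named by a rule: by complex up to 3 higher and 3 lower with the smallest p-values, the isoform families, the catalytic subunits and the genes near 0. 1 gene that the rule names is not reported here. Some genes were named beside them for their promoters, their shared windows or their values. Alternatives varied the pseudocount, filter, scaling, record choice, variance prior, each library and a choroid plexus covariate.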

Additional observations from a re-analysis of the deposited data

How the results depend on the processing

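In the 14 settings with a test, 0 of the tested oxidative phosphorylation genes passed, with a smallest adjusted limma p of 0.196 in any setting. Over all genes the number that passed was 1, but 0 with no variance trend, 12 with a robust prior and 78 with the choroid plexus covariate, and between 1 and 37 with a library left out (8 without mutant 38, 7 without mutant 39, 37 without wild-type 11). Leaving out a library leaves 1 sample in a group, which is assumed to vary like the others. The count of genes with both mutants below both wild-types was 2, and 4 with libraries centred on the median and 7 with quantile normalization. With a library left out, median log2 fold changes ranged from -0.05 to 0.11 over all members, from -0.05 to 0.11 for complex I, from 0.0063 to 0.0885 for complex II, from -0.0578 to 0.1128 for complex III, from -0.0471 to 0.1691 for complex IV, from -0.1359 to 0.1096 for complex V, from -0.17 to 0.00 for the tissue isoforms and from -0.0403 to 0.1159 for the factors. The factors had 0.0834 in mutant 39 against wild-type 73. The causes were not tested. Of 1453 values of single genes over the settings, 148 changed sign, in 67 genes, and none of them was past the threshold. No paired analysis was possible because the 2 groups have no replicate number in common. Depth limits Atp5l, Atp5g2, Cox7b2 and Cox8c most, and wild-type 73 had the fewest reads.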

Other observations

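Low values in well-known genes were also seen outside the respiratory chain lists' subunits. Gapdh, the glycolysis enzyme often used as a loading control, had 23.5 and 18.9 read equivalents in mutants 38 and 39 and 22.0 and 16.0 in wild-types 11 and 73, and Mrpl23, a mitochondrial ribosomal protein gene, had 4.20 and 3.93 in the mutants and 5.79 and 14.1 in the wild-types. Both were chosen after their values were seen. Their shared windows were not computed.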
